A study of Bos taurus with 8 samples.

Results

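The comparison described here sets 3 arrays of cultures treated with the HIV-1 protein TAT against 2 arrays of control cultures, 5 of the 8 arrays of the series. The arrays were chosen by their titles alone (TAT A, B and C, and control A and B). The cells came from bovine eyes, are given as primary Müller glia and had been cultured for 18 to 21 days. The TAT cultures received recombinant TAT at 100 ng/ml, and all samples were taken after 24 h. The remaining 3 arrays came from cultures given the viral envelope protein gp120. In the main fit, which has no term for the replicate letters, they entered only the estimate of the spread. With the letters as a block they also entered the estimates of the differences. They counted in the choice of probe for each gene as well. The treatment text is the same for every sample and names TAT and gp120 together, so the groups rest on the titles. The number of animals and cultures, and whether replicates are separate cultures, are not given, so p-values here measure only the spread between these samples. Control A and TAT A share a letter, as do control B and TAT B, while TAT C has no control of its letter. In each sentence below a level is the log2 signal of 1 probe on 1 array, relative to that array's 75th percentile, and a difference is a difference of such levels, in which 1 unit is a 2-fold change.

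TAT is the transactivator of HIV-1. Inside an infected cell it binds a hairpin in the nascent viral RNA and recruits the elongation kinase P-TEFb, which is made of cyclin T1 and CDK9, to release paused RNA polymerase. Infected cells also secrete TAT, and neighbouring cells that carry no virus can take it up through heparan sulfate proteoglycans and lipoprotein receptors or bind it with integrins. Müller glia are the radial glia of the retina. They span its whole thickness, recycle glutamate, contact blood vessels and can release cytokines and growth factors.

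Each gene was read by an oligonucleotide of 60 bases, and these probes fix which transcript a value stands for. The first 30 bases are shown for 6 probes that the results turn on: the chemokine CXCL10, the lipid kinase DGKI and the metalloprotease ADAM33, which were lower on the TAT arrays, and the proteoglycan FMOD, the ribonuclease BRB and the growth factor carrier IGFBP2, which were higher. They are copied from the deposited files, 5′ to 3′.
CXCL10: actgccacccctccaaggggcccatattct
DGKI: tcttttcaaaccctctggatgtcctgcaga
ADAM33: ggtttgcaatagtaaccgtaactgccattg
FMOD: cctctataaaggatccttattacaggaaaa
BRB: ccaactactgcaatcagatgatgaagcgcc
IGFBP2: tcatctcttctacaacgagcagcagggggc
In the build of the file headers, HGSC Btau_3.1, the CXCL10 probe lies at chr6:94129412-94129471 on the minus strand and the DGKI probe at chr4:104679196-104679255 on the minus strand. The ADAM33 probe lies at chr13:52091686-52091828 on the plus strand, a span of 143 bases for a probe of 60, so it crosses a gap in the genome. The FMOD probe lies at chr16:111438-111497 on the minus strand, the BRB probe at chr10:25659226-25659285 on the plus strand and the IGFBP2 probe at chr2:108839213-108839272 on the plus strand. No annotation of that build was used here, so exons and untranslated regions are not given. The probes of CXCL10, DGKI, BRB and IGFBP2 are not the only ones of their genes (3, 2, 2 and 2 kept probes), and in each of these genes every kept probe had the same sign of the difference between the group means.

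Between 59.57% and 64.62% of the spots of each of the 5 arrays were well above background, and 0 were saturated. All 5 were read in the same scan. Of the gp120 arrays, A shared that scan, but B and C were read in another, at a photomultiplier voltage of 471.164 in place of 430.754. The spread estimated by the model therefore includes a difference in scan within the gp120 group. Control A, control B and TAT A lay in row 1 of the slide, and TAT B and TAT C in row 2, so row and treatment are partly confounded. After the filter on dim probes 11974 named genes were tested, of which 11392 were well above background on all 5 arrays.

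The labelled cell type was set against marker genes. Of 26 Müller glia markers on the array 17 were well above background on all 5 arrays (65.4%, against 67.5% of all 16911 named genes). Glutamine synthetase (GLUL) and the glutamate transporter SLC1A3 were, but the retinaldehyde carrier RLBP1 and the filament protein GFAP were on 2 arrays each and the potassium channel KCNJ10 on 0. Markers of microglia and macrophages (20 of 25), fibroblasts (13 of 16) and mural cells (17 of 19) were measured more often, and those of retinal neurons (6 of 22) and pigment epithelium (5 of 14) less often. The leukocyte and macrophage markers PTPRC, CSF1R and AIF1 were well above background on all 5 arrays, as were 10 of 15 endothelial markers, among them PECAM1, and 7 of 15 lymphocyte and erythroid markers, among them CD79A of B cells. CDH5 of endothelium, CD3E of T cells and TYR of pigment cells were well above background on 0. The extraction text speaks of astrocytes, of whose 10 markers 7 were well above background on all 5 arrays. The full Müller glia set was therefore not well above background on these arrays. In bulk RNA fewer cells of a type and less RNA per cell cannot be told apart.

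No single gene passed the test between TAT and control. In limma's fit 0 of 11974 genes (0%) had an adjusted p under 0.05, and the smallest adjusted p was 0.999. At an unadjusted p under 0.05 stood 162 genes, 56 higher and 106 lower with TAT. With the replicate letters as a block 0 genes (0%) passed as well (smallest adjusted p 0.929), and 583 had an unadjusted p under 0.05, 272 higher and 311 lower. The 95% interval of a difference extended 0.70 each way for the median gene (0.51 when letters were blocked), so differences well under 2-fold could not be resolved at this number of arrays. The values of genes below are descriptions of these arrays, and every tested gene named here had an adjusted p of 0.999 in limma's fit. Their SEs and 95% intervals are those of the fit without the letters.

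Cultures of the same letter were more alike than cultures of the same treatment. The SD over genes of the difference between control A and control B was 0.78, and 14.2% of genes differed more than 2-fold between these untreated arrays. TAT A differed from control A with an SD of 0.50 and TAT B from control B with an SD of 0.43, and 4.93% and 3.04% of genes lay beyond 2-fold. The TAT arrays differed from each other with SDs of 0.62 (B and C), 0.75 (A and B) and 0.85 (A and C). TAT C, without a control of its letter, was nearer to control B (0.63) than to control A (0.96). A mean difference between the groups therefore also holds differences between letters, most of all through TAT C.

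**Figure D1:**
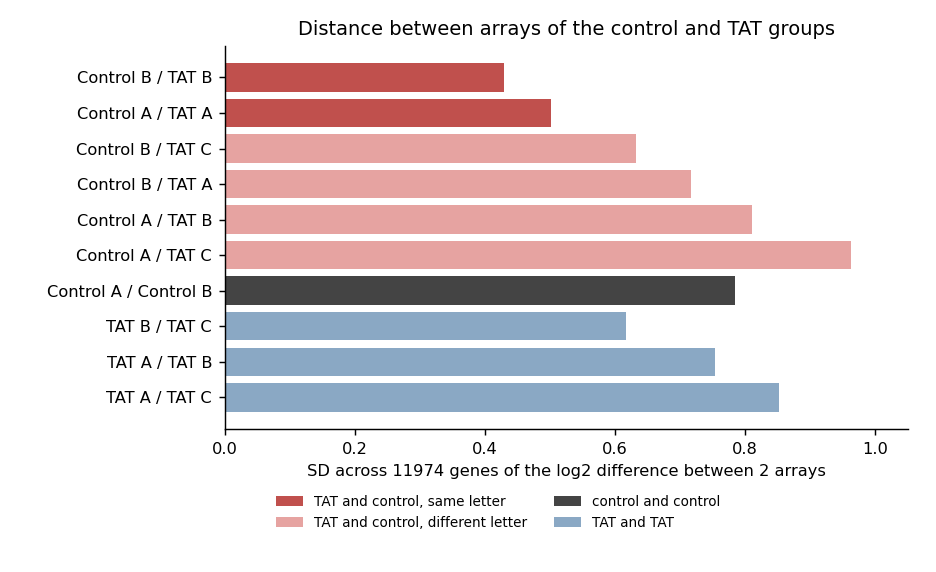
Each bar is the SD across 11974 genes of the log2 difference between 2 arrays (x axis, from 0), for the 10 pairs of control and TAT arrays (y axis), coloured by whether treatment and letter are shared. The same-letter pairs of TAT and control have the shortest bars, 0.43 and 0.50, and the bar of control A and control B reaches 0.78.

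The same-letter pairs share no array, and their differences did not go together across genes. Pearson's r between TAT A minus control A and TAT B minus control B was -0.03 over 11974 genes, which share their arrays and are not independent replicates. Over the processing alternatives it ran from -0.06 to 0.04. In 5928 genes (49.5%) the pairs had opposite signs, in 2231 (18.6%) both were above 0 and in 3815 (31.9%) both were below 0. More than 2-fold differences were found in 590 genes of pair A and 364 of pair B. Of these, 19 (0.159% of all genes) were past 2-fold higher in both pairs, 15 (0.125%) past 2-fold lower in both, and 35 past 2-fold in opposite directions. At this size the pairs thus disagreed in direction as often as they shared it.

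**Figure D2:**
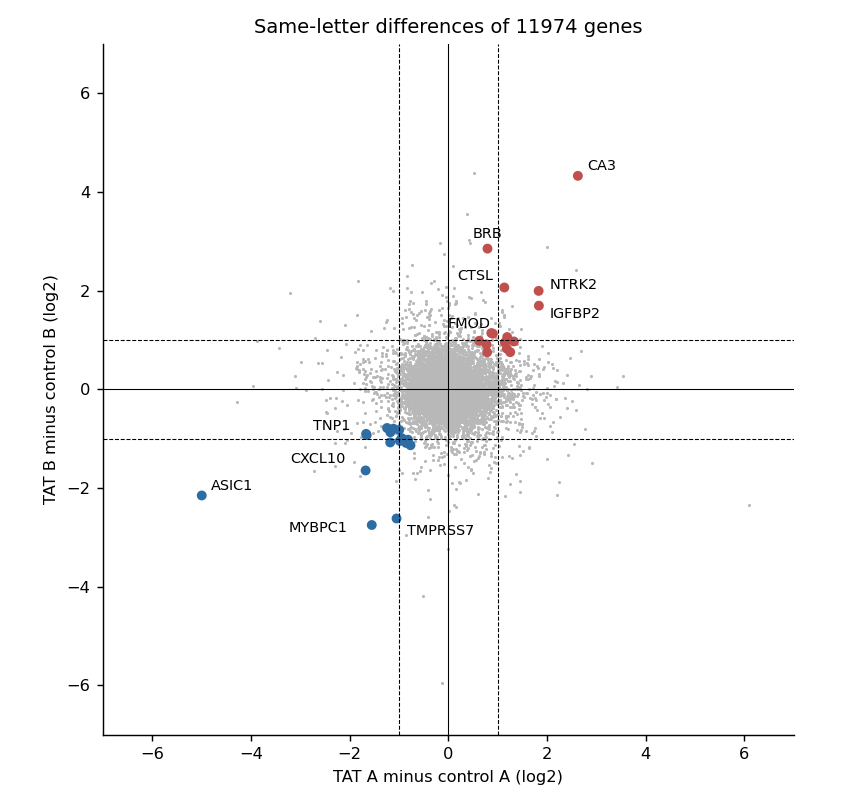
Each point is 1 of 11974 genes, with TAT A minus control A on the x axis and TAT B minus control B on the y axis (log2), dashed lines at 2-fold, and coloured points for the 32 genes of the naming rule. The cloud has no slope (r -0.03), and few genes lie beyond 2-fold in the corners where both pairs share a sign.

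The genes that were past 2-fold in both pairs were often dim or overlapped between the groups. Of the 19 higher ones, 13 were well above background on all 5 arrays, 8 did not overlap between groups and 3 had only a LOC name. Of the 15 lower ones, 14 did not overlap but only 2, CXCL10 and ADAM33, were well above background on all 5 arrays. SERPING1, the inhibitor of complement C1 proteases, is 1 of the higher genes, singled out after its values were seen. Its level was -0.36 in control A and -1.96 in control B against 0.87, -0.75 and 0.37 in TAT A, B and C. The pair differences were 1.23 and 1.21, yet TAT B lay below control A, since letter B was low throughout. All 3 of its probes had the same sign.

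Genes whose arrays did not overlap between groups were 1113 with every TAT array below both controls (9.3%) and 570 with every TAT array above (4.76%). From these the 12 per direction with the largest smaller pair difference are described next.

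CXCL10, a chemokine that interferon induces and that draws T cells, ranked first among the genes below both controls. Its level was 1.31 in control A and 1.24 in control B, and -0.36, -0.40 and 0.35 in TAT A, B and C. All 3 TAT arrays lay below both controls, which differed by less than 0.1 from each other. The pair differences were -1.68 in A and -1.64 in B. The group difference was -1.42 (SE 0.49, 95% interval -2.55 to -0.28). With the letters as a block limma gave an adjusted p of 0.929. Its 3 probes gave -1.45, -1.42 and -1.31. The near-equal pair differences are those of the brightest probe. The other probes had -1.70 in A and -1.28 in B, and -1.63 in A and -0.72 in B. Over 16 alternatives the difference ran from -1.87 to -1.20.

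Other genes below both controls belong to varied roles. DGKI, a kinase that removes the lipid messenger diacylglycerol, had levels of -1.99 and -1.999 in controls A and B and of -3.66, -2.90 and -3.01 in TAT A, B and C. Its difference was -1.19 (SE 0.31), and the controls were nearly equal. FGL1, a fibrinogen-like secreted protein and ligand of the immune receptor LAG3, stood at 2.31 and 2.22 in the controls and at 1.13, 1.35 and 0.90 with TAT, a difference of -1.14 (SE 0.33). Its 3 probes shared the sign, but the third had a pair difference of only -0.0024 in B. ADAM33, a membrane metalloprotease, was dim on every array, at -3.40 and -3.94 in the controls and -4.58, -5.02 and -4.49 with TAT.

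The rule also named CD52, SIGLEC15 and MARCHF1. CD52, a surface glycoprotein of leukocytes, had pair differences of -1.11 and -0.80, SIGLEC15, a sialic acid receptor of myeloid cells, -1.24 and -0.78, and MARCHF1, a ubiquitin ligase that takes MHC class II off the surface, -0.86 and -1.08. Of 21 measured microglia and macrophage markers 10 were above 0 and 11 below, with a median of -0.02. On all TAT arrays 1 lay above and 2 below both controls, close to the 4.76% and 9.3% of all genes. Their summed scaled signal was 882 in control A and 617 in control B against 782, 690 and 611 in TAT A, B and C, and the part of such cells in these differences was not tested. The neural and cilium genes WDR47 (a microtubule protein, -0.94 and -0.99) and RFX2 (a transcription factor of ciliated cells, -0.98 and -1.05) were lower by nearly equal amounts in both pairs. For WDR47 this held for the brightest probe only, as a second probe gave -0.635 and 0.17. DLK2, a Notch ligand-like membrane protein, had -0.99 and -0.82, but its second probe gave -0.67 and 0.21. TNP1, known from sperm chromatin, had -1.65 and -0.93. CLDN5, the tight junction claudin of vessel endothelium, had -0.82 and -1.02, but its other 2 probes were above 0 in pair B (1.17 and 1.86), and in the deposited table its group difference was 0.09.

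NTRK2, the receptor for the neurotrophin BDNF, led the genes above both controls. Its level was -2.995 and -3.76 in controls A and B and -1.16, -1.77 and 0.54 in TAT A, B and C. All TAT arrays were above both controls, and TAT C was far above the other two. The pair differences were 1.83 and 1.996 and the group difference 2.58 (SE 0.98), from 1 probe. Over the alternatives it ran from 1.09 to 3.07.

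TAT C was also the highest array in CTSL, BRB and FMOD and made up the largest part of their group differences. CTSL, the lysosomal protease cathepsin L, stood at -4.37 and -5.03 in the controls and at -3.23, -2.97 and 1.13 with TAT, and its group difference of 3.01 had an SE of 1.98. BRB, a brain-type member of the ribonuclease A family, stood at 0.60 and 0.56 in the controls and at 1.40, 3.41 and 4.61 with TAT. Its pair differences were 0.79 and 2.85, and a second probe gave 1.89 and 1.65. The controls of BRB were nearly equal while the 3 TAT arrays spread over more than 3 log2 units. FMOD, fibromodulin, a proteoglycan that binds collagen fibrils, had levels of -3.06 and -2.06 in the controls and -1.91, -1.10 and -0.01 with TAT, with pair differences of 1.15 and 0.95.

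In the remaining higher genes of this rule TAT C lay below TAT A. TEAD2, a transcription factor of the Hippo pathway, had pair differences of 1.33 and 0.97, and CADPS2, which primes dense-core vesicles for release, 1.21 and 1.01. ADAM12, a disintegrin metalloprotease of mesenchymal cells, had 1.25 and 0.75, the secreted olfactomedin OLFM1 0.77 and 0.91, and the C-type lectin-like CLECL1 1.19 and 0.83. The RNA-processing genes SLU7, a splicing factor, and NRDE2 had 0.87 and 1.14, and 1.19 and 1.06, but NRDE2 had a second probe with 0.11 and -0.40. The clock repressor NR1D1 had 0.79 and 0.75, and its group difference of 0.76 became -0.03 with normexp background correction.

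**Figure D3:**
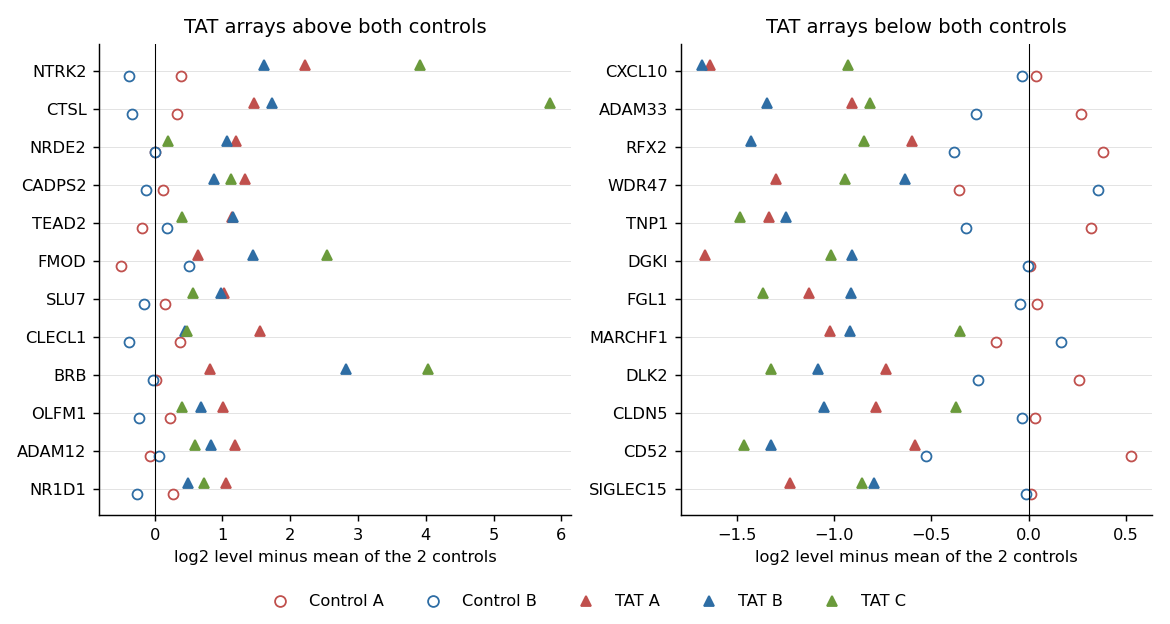
Levels of the 12 genes per direction on each array, as log2 level minus the mean of the 2 controls (x axis), with open circles for controls and triangles for TAT, coloured by letter. The 2 circles of CXCL10, DGKI, FGL1 and SIGLEC15 almost coincide, while TAT C stands far to the right for NTRK2, CTSL and BRB.

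Some genes were not well above background on any array of a group and have only a bound, which is that of their brightest probe. For IGFBP2, a carrier of insulin-like growth factors, no bound is given, because its second probe was well above background on control B. The levels of its brighter probe were -5.11 and -5.85 in the controls and -3.28, -4.15 and -3.71 with TAT, with pair differences of 1.84 and 1.70, and its second probe gave 1.98 and -0.34. With normexp background correction the difference of IGFBP2 was 0.08, in place of 1.77. CA3, a carbonic anhydrase best known from muscle and fat, was at least 6.91-fold higher, with TAT C at 0.31 and TAT A and B at -4.61 and -3.23. Its fitted difference of 4.89 had a 95% interval of -1.195 to 10.97 and fell to 0.80 in the lowest alternative. The nucleotide receptor P2RY2 was at least 1.80-fold and TMEM100 at least 1.78-fold higher. With normexp background correction their fitted differences, 0.99 and 0.86, both became -0.06.

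On the lower side ASIC1, an acid-sensing ion channel, was not well above background on any TAT array and was at least 3.73-fold lower. Its controls were far apart, at -2.30 and -4.69. The sarcomere protein MYBPC1 was at least 2.18-fold, the membrane protease TMPRSS7 at least 1.73-fold and the metalloprotease MMP24 at least 1.70-fold lower. These bounds hold for the main processing. Over the alternatives the fitted differences shrank to -0.51 for ASIC1 (in place of -3.04) and -0.34 for MYBPC1 (-2.46). Those of TMPRSS7 (-1.56) and MMP24 (-0.84) both shrank to -0.25. Of the 32 genes of both kinds 28 kept the sign of the group difference under every alternative, the exceptions being CLDN5, NR1D1, P2RY2 and TMEM100. All were chosen for not overlapping between the groups. Leaving out single arrays, fitting within slide row 1 or fitting the control and TAT arrays alone therefore could not change their sign. Only the other alternatives could.

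The host partners through which TAT acts on transcription were measured at levels that differed little. Of 20 tested elongation partners 9 were higher with TAT and 11 lower, with a median difference of -0.02. Over all genes 45% were higher, 55% were lower and the median was -0.03. CDK9, the kinase of P-TEFb, stood at 5.11 and 5.09 in controls A and B and at 4.98, 4.85 and 5.14 in TAT A, B and C, so the groups overlapped. Its difference of -0.11 had a 95% interval of -0.57 to 0.34, which leaves out a 2-fold change in either direction. HEXIM1, which holds P-TEFb inactive, differed by 0.21 (SE 0.25). SUPT4H1, a subunit of the pausing factor DSIF, was the only member without overlap, at -0.35 (SE 0.29). Over all genes 9.3% lay below both controls on all TAT arrays and 4.76% above. LARP7 and NELFA, of the inhibitory 7SK particle and of the pausing complex NELF, differed by 0.18 and 0.21. CCNT1, the cyclin that TAT binds, was well above background on 3 of 5 arrays and was not tested.

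Surface molecules reported to bind TAT were likewise spread on both sides, 7 of 13 higher with a median of 0.06. The heparan sulfate proteoglycan SDC2 had pair differences of 0.90 and 0.77 and a group difference of 0.72 (SE 0.53), while its levels overlapped because control B (3.05) lay above TAT A (2.79). The basement membrane proteoglycan HSPG2 had 1.42 in pair A and -0.28 in pair B, and the integrin ITGB3 0.87 and -1.59. The median of this list was below 0 without control A or TAT A and in the deposited table, and that of the elongation partners changed sign under 7 of 16 alternatives.

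Chemokines and cytokines gave different pictures in the pairs. Of 16 measured chemokines 13 had a group difference below 0, with a median of -0.71. In pair A the median was 0.08 and 9 of 16 were above 0, whereas in pair B it was -0.90 and 3 of 16 were above 0. CXCL8, which draws neutrophils, stood at 4.19 in control A and 5.03 in TAT A, and at 2.55 in control B, 0.87 in TAT B and 0.43 in TAT C. Both letter A arrays were above all others irrespective of TAT. Letter A was likewise on top for IL1B (3.29 and 4.202 in letter A against 0.80, 0.60 and 0.36) and for IL6 (0.92 and 3.69 against -1.94, -2.74 and -0.47). In IL6, unlike CXCL8 and IL1B, TAT C lay above control B.

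CXCL10 was unlike these genes, as the controls of its brightest probe were level and both pairs were far below 0. Its other probes were also below 0 in both pairs, but less so in pair B (-1.28 and -0.72). Among genes singled out after their values were seen, CXCL11, a chemokine at the same receptor, had pair differences of -0.37 and -1.63 and did not overlap between groups. CXCL9, the third ligand of that receptor, had 0.09 and 0.46 and lay above both controls on all TAT arrays, so these 3 ligands did not share a direction. The macrophage attractants CCL3 and, also singled out afterwards, CCL8 had -0.45 and -1.01, and -0.67 and -1.05. The cytokines IL15 (-0.67 and -0.33) and IL18 (-0.70 and -0.53), which activate lymphocytes, were below control in both pairs. Without control A the median difference was 0.15 for chemokines and 0.11 for cytokines, in place of -0.71 and -0.39. Both medians were also above 0 within slide row 1 (0.62 and 0.60) and with slide row as a block (0.39 and 0.48).

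**Figure D4:**
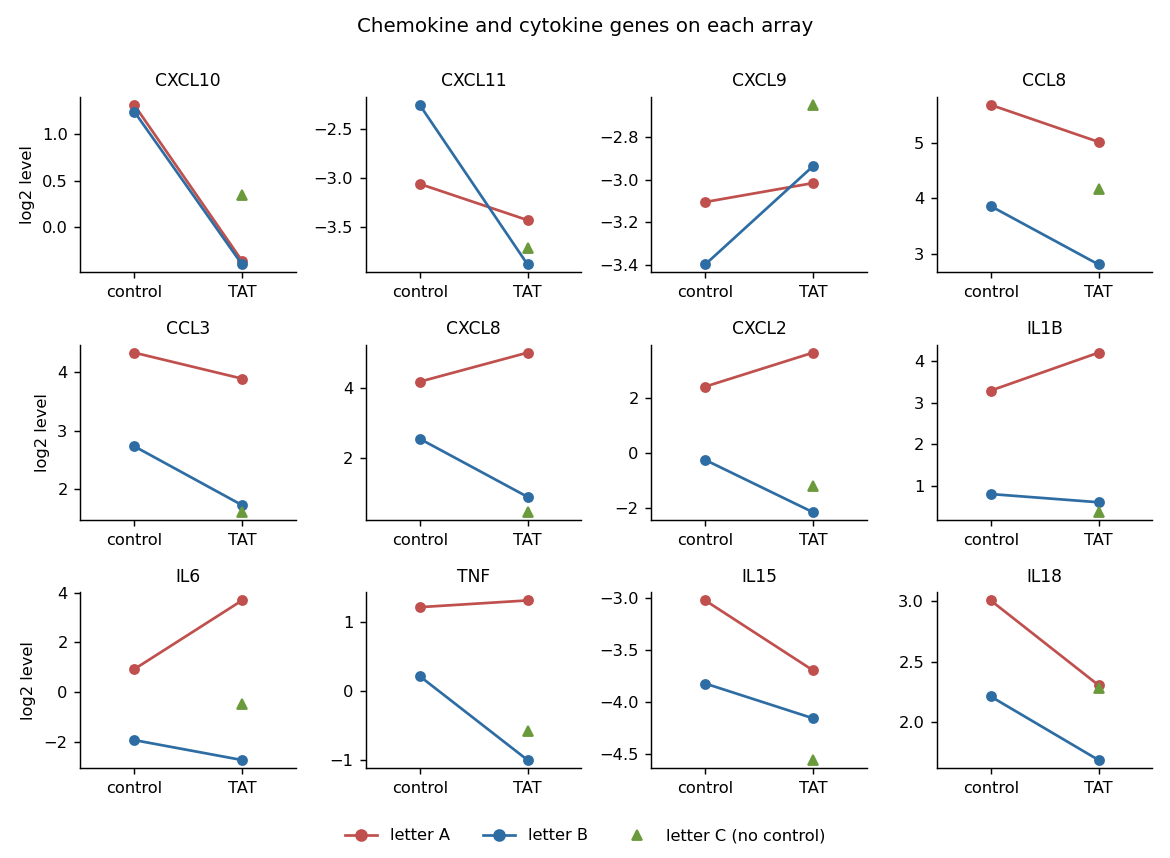
Log2 level (y axis, a scale of its own in each panel) of 12 chemokine and cytokine genes on the control and TAT arrays, with lines joining arrays of the same letter and a triangle for TAT C. Each gene is shown by its brightest probe. The lines of CXCL10 nearly coincide, from 1.31 and 1.24 down to -0.36 and -0.40. Those of CXCL8, IL1B and IL6 run apart, with letter A on top.

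Among 33 interferon-stimulated genes 31 had a group difference below 0 and 24 were below 0 in both pairs, against 31.9% of all genes. Only DTX3L, a ubiquitin ligase (-0.80 and -0.47 in the pairs), and the RNA-binding IFIT5 (-0.17 and -0.40) lay below both controls on all TAT arrays, against 9.3% of all genes. Both are named after their values were seen. HERC6, MX2 and PARP9, which had the smallest p-values of the list, differed by -0.55, -0.46 and -0.42. IFITM2 was highest, at 0.13. Without control A the list's median was 0.05, in place of -0.41, and within slide row 1, where TAT A is the only TAT array, it was 0.02.

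Matrix genes differed mostly in pair A. All 34 measured glycoproteins and proteoglycans had a group difference above 0, but the median was 0.85 in pair A and 0.13 in pair B, and 23 of 34 were above 0 in both pairs, against 18.6% of all genes. LUM, a proteoglycan of collagen fibrils, had 3.42 in pair A and 0.04 in pair B. FBLN1, an elastic fibre protein, had 3.54 and 0.26, and THBS2, an antiangiogenic matrix protein, 2.81 and 0.00. For these 3, singled out for the contrast, almost the whole same-letter difference lay in letter A.

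FN1 and FBN1 had pair differences nearer to each other. FN1, fibronectin, stood at 6.05 and 6.40 in controls A and B and at 6.88, 7.02 and 6.71 in TAT A, B and C. Its pair differences were 0.83 and 0.62, its group difference 0.64 (SE 0.28), and all 13 of its probes had the same sign. FBN1, the main microfibril protein, had equal controls (-0.85 and -0.85) and TAT levels of 0.14, -0.22 and -0.16. COL1A1, a chain of fibrillar collagen I, again differed more in pair A, with 1.45 against 0.37 in pair B. Among 17 collagens 16 were above 0, the exception being COL15A1 (-0.13), and 7 lay above both controls on all TAT arrays, against 4.76% of all genes. MGP, a calcification inhibitor named after its values were seen, had -1.83 and 2.19, with only 1 of its 3 probes sharing the sign.

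Enzymes that fold, trim and crosslink collagen followed the same split. Of 21 measured, 19 had a group difference above 0, with medians of 0.63 in pair A and 0.04 in pair B. The crosslinking oxidase LOXL2 had 1.62 and 0.22, the collagen chaperone SERPINH1 1.12 and 0.15 and the procollagen protease enhancer PCOLCE 0.82 and 0.22. The collagen receptor DDR2 of the integrin list had 1.36 and 0.59 and did not overlap. LTBP2, a microfibril protein of the TGF-beta list, had 1.20 and 0.31.

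Markers of stromal cells had summed levels that overlapped between the groups. Of 13 fibroblast markers 10 had a group difference above 0, and 3 lay above both controls on all TAT arrays, against 4.76% of all genes. Their summed scaled signal was 209 in control A and 155 in control B, and 252, 200 and 205 in TAT A, B and C. PRRX1, a mesenchymal transcription factor, had pair differences of 0.86 and 0.61, on 1 of 2 probes, and PDGFRA, a growth factor receptor of fibroblasts, was well above background on 0 of 2 control and 2 of 3 TAT arrays. Of 18 mural cell markers 17 were above 0, with sums of 221 and 481 in the controls and 365, 654 and 427 with TAT. Letter A was low in both groups for mural cells, and the median of this list was -0.09 without control A, in place of 0.53. The part of such cells in the matrix difference was not tested.

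Wnt genes had pair medians closer to each other. Of 20 Wnt genes 18 were above 0, with medians of 0.44 and 0.29 in pairs A and B, and 5 lay above both controls on all TAT arrays, against 4.76% of all genes. LRP5, a Wnt co-receptor, stood at -1.21 and -1.08 in the controls and at -0.50, -0.59 and -0.61 with TAT, a difference of 0.57 (SE 0.21) with nearly level arrays in each group. The secreted Dickkopf family members DKK3 and DKK2 had 0.66 and 0.30, and 0.25 and 0.56. LEF1, a transcription factor and target of the pathway, had -0.48 and -0.55. Of 9 neurotrophic factors 8 were above 0, among them midkine (MDK, 1.01 and 0.35). Of 12 insulin-like growth factor genes 9 were above 0, and their receptor IGF1R had 0.09 and -0.69.

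Genes of mitochondrial respiration were slightly lower. Of 40 nuclear-encoded subunits 33 had a group difference below 0, with a median of -0.13, against 55% and a median of -0.03 over all genes. In both pairs 23 were below 0, against 31.9% of all genes. On all TAT arrays 10 lay below both controls and 1 above, against 9.3% and 4.76% of all genes. The ATP synthase subunit ATP5F1A stood at 7.31 and 7.06 in the controls and at 6.81, 6.90 and 6.92 with TAT. The complex IV subunit COX7C had -0.50 and -0.08 and the complex I subunit NDUFA1 -0.53 and -0.11. Each difference was about 0.3, below the 0.70 that the median gene could resolve. NDUFB8 was highest, at 0.15.

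Lysosomal genes lay on both sides of 0. Of 45 lysosomal genes 25 were below 0, with a median of -0.04, which was 0.01 with normexp background correction and 0.05 in the deposited table. On all TAT arrays 9 of the 45 lay below both controls and 3 above, against 9.3% and 4.76% of all genes. The list holds 7 genes of the proton pump that acidifies the lysosome, which were not a list of their own. ATP6V1A, the catalytic subunit of the pump, stood at 6.12 and 5.97 in the controls and at 5.75, 5.46 and 5.66 with TAT. Its pair differences were -0.36 and -0.51, and those of ATP6V1E1 were -0.32 and -0.40. ATP6V1H (-0.49 and -0.24) and ATP6V0C (-0.43 and -0.21), named after their values were seen, did not overlap either. The other 3 pump genes overlapped between the groups, ATP6V1B2 with -0.74 and -0.21, ATP6V0D1 with -0.31 and 0.11 and ATP6AP1 with 0.53 and -0.65. The acid lipase LIPA had -0.42 and -0.23. On the other side stood CTSL and, chosen in the same way, the protease CTSC (0.40 and 1.02).

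Apoptosis and p53 target genes had 23 of 32 members below 0, against 55% of all genes, with medians of -0.22 in pair A and -0.14 in pair B. On all TAT arrays 7 lay below both controls and 0 above, against 9.3% and 4.76% of all genes. ZMAT3, an RNA-binding p53 target, stood at -1.41 and -1.51 in the controls and at -1.86, -2.22 and -2.38 with TAT, a difference of -0.69 (SE 0.24). All TAT arrays were below both controls. The inflammatory caspases CASP4 and CASP1 had -0.50 and -0.37, and -0.84 and -0.17. The stress-induced transcription factor ATF3, of the endoplasmic reticulum stress list, had -0.73 and -0.87, with levels of 5.54 and 4.71 in the controls and 4.81, 3.84 and 3.49 with TAT.

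Sterol synthesis genes were divided by pair, with a median of 0.08 in A and -0.40 in B. NSDHL and SQLE, enzymes of the late and middle steps, had -0.42 and -0.42, and -0.42 and -0.39, and lay below both controls on all TAT arrays, although only 1 of 2 NSDHL probes shared the sign. MVD, which makes the isoprenoid building block, had -0.20 and -0.41. MVK had 0.36 and -0.42. The group median of the list was -0.16, and 0.04 without control B.

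In several lists the pairs had opposite directions. Cytosolic ribosomal proteins had a median of -0.19 in pair A, with 11 of 63 above 0, and of 0.36 in pair B, with 56 of 63 above 0, so their group median of 0.01 holds both. MHC class II genes had -0.24 in pair A and 1.16 in pair B, and their group median of 0.36 was -0.03 without control B. The invariant chain CD74 stood at -0.35 and -0.33 in the controls and at -0.47, 1.59 and 0.59 with TAT, and BOLA-DRA, the alpha chain of the bovine DR molecule, lay above both controls on all TAT arrays (0.24 and 1.16). DNA replication and mitosis genes had 0.19 in pair A, -0.10 in pair B and 0.64 in TAT C against the mean of the controls. Their group median of 0.26 was -0.12 without control A. MCM3, CDC6 and MCM5, which load and form the replicative helicase, were above both controls on all TAT arrays, with pair differences of 0.87 and 0.31, 0.60 and 0.54, and 0.44 and 0.23. Of the 48 lists 19 had a median above 0 in both pairs, 13 below 0 in both and 16 had medians of opposite sign.

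**Figure D5:**
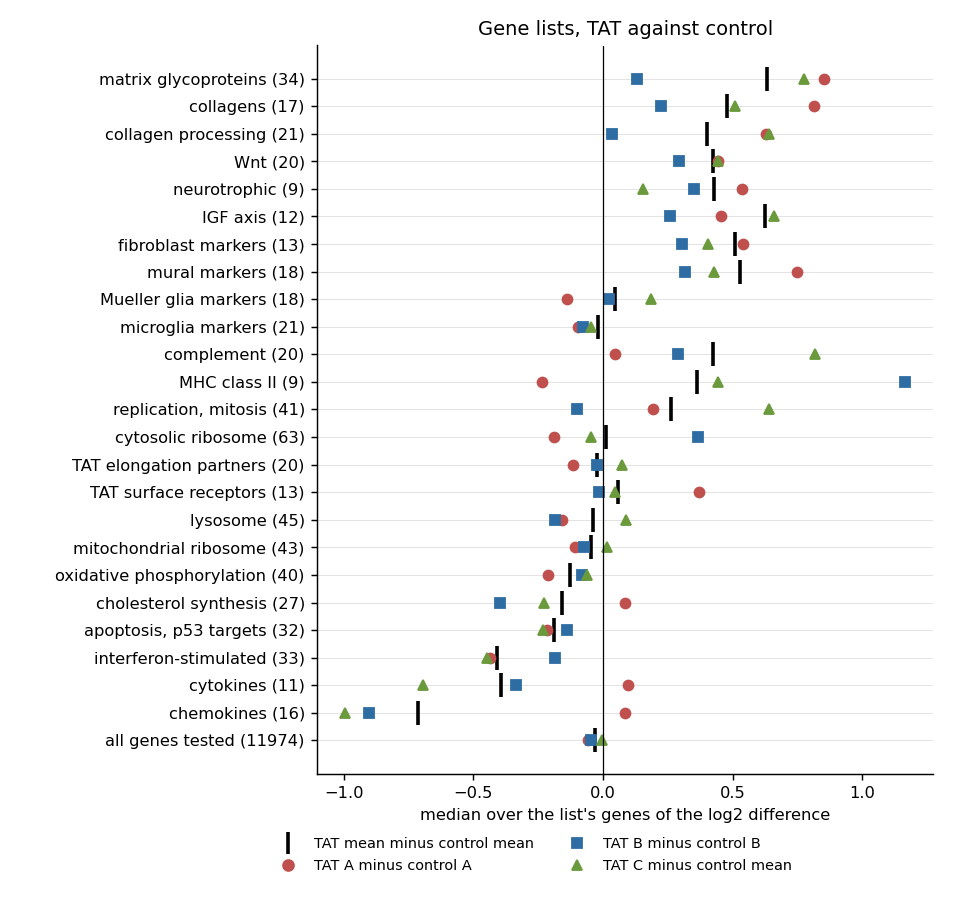
Median log2 difference (x axis) over the measured genes of 24 lists and over all genes (y axis, number of genes in parentheses), as a black bar for the group means, a circle for pair A, a square for pair B and a triangle for TAT C against the mean of the controls. Collagens and Wnt genes lie to the right in all 4 measures, whereas chemokines, MHC class II and ribosomal genes have the pairs on opposite sides of 0.

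Glial genes of the fixed set overlapped between the groups. GLUL stood at 6.35 and 6.10 in the controls and at 5.60, 5.99 and 6.29 with TAT. The water channel AQP4 had -1.08 and -0.18, with 1 of 2 probes sharing the sign. VIM, an intermediate filament, differed by -0.01 (95% interval -0.58 to 0.55) and the vessel growth factor VEGFA by 0.02 (-0.42 to 0.45). SPARCL1, a matricellular protein of the astrocyte list, was above both controls on all TAT arrays, with levels of 2.48 and 3.61 in the controls and 4.31, 4.23 and 4.02 with TAT, and all 4 of its probes shared the sign. The adhesion molecule ICAM1 differed by 0.19, the junction scaffold TJP1 by 0.29, the gelatinases MMP2 and MMP9 by 0.36 and -0.23, heme oxygenase HMOX1 by -0.19, and CCL2 and TNF by -0.41 and -0.80, each with overlapping groups.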

How the data were processed

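Total RNA of each sample was labelled with Cy3 and read on 1 array of a bovine design (Agilent, 029411). Per the file headers, the authors made the deposited intensity values with Agilent Feature Extraction 11.5.1.1, which subtracted background and detrended each array. The submitters' processing notes name the same software. The intensities were not scaled between arrays. The sources used here do not say how the deposited table of log2 values came about, so it served only as an alternative. Its column medians for the arrays of the 2 groups ran from -3.30 to -3.20, it correlated at 0.9745 to 0.9794 with the scanner values, its scale and direction follow from that comparison, and its centring stays unknown.

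Levels are log2 of the processed signal minus the 75th percentile of the same array. Control spots and 4 to 37 outlier spots per array were left out. Of 51282 probes, 31112 were well above background on every control or every TAT array, and 31069 of them had no missing value. Names came from accessions (29882 probes), symbols (5523) or synonyms (149) in a bovine RefSeq gene table, and 15728 probes are unnamed here. The probe with the brightest mean over all 8 arrays stood for each of the 7031 genes with more than 1 kept probe, which gave 11974 genes. The comparison used lmFit and eBayes of limma 3.58.1 under R 4.3.3 (all 8 arrays in 1 fit, Benjamini-Hochberg over the genes, two-sided, threshold 0.05), after a check on simulated data. Tables were handled with data.table (version 1.17.8), and figures were drawn with matplotlib 3.10.9, pandas 2.3.3 and numpy 2.4.6 in Python 3.11.15.

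The replicate letters were checked for pairing over all 8 arrays. Deviations from group means had correlations of 0.38 to 0.75 in 7 pairs of the same letter from different groups and of -0.65 to 0.42 in 14 pairs of different letters. The letters were therefore treated as pairing the samples in the same-letter differences and in the fit with letters as a block. The main fit, which gave the quoted SEs and intervals, has no term for letters, so these also include differences between letters. The pairing itself is uncertain, because deviations of 2 controls are mirror images and control B correlated as well with TAT C (0.42) as with TAT B (0.40).

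Named genes are up to 12 per direction that were well above background on all 5 arrays, had a symbol and did not overlap between groups, ranked by the smaller same-letter difference. Added to these are up to 4 bounds per direction, the 3 smallest p-values and the largest opposite difference of each list described, and a fixed set. Genes outside this rule are said to be so. A few genes that the rule names are not reported here. The members, gene lists and rules were chosen with earlier results of these data known. An "at least" fold compares the bright group's mean with a floor for the dim group, taken on each array as the larger of the probe's signal and the weakest signal that still stood well above background.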

Additional observations from a re-analysis of the deposited data

How the results depend on the processing

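Of 11974 genes 0 passed in the scanner values, and 0 passed with the replicate letters as a block, where 583 genes in place of 162 had an unadjusted limma p under 0.05. The deposited table gave 4 genes that passed (MON2, NRBP2, RMI1 and SP1, adjusted p 0.0138 to 0.0245), with differences of -3.18 to -2.62 there and of -0.28 to 0.25 in the scanner values. Leaving out single arrays gave 0 to 1, the 1 being ZNF362 without control A (-6.20, against -2.88 with it). The cause was not tested. Past 2-fold in both pairs, higher and lower, stood 7 and 1 genes with normexp background correction (in place of 19 and 15), 50 and 78 with no filter on dim probes, 2 lower with the strict filter and 91 lower in the deposited table. Dim probes enter or leave where the filter was dropped or made strict. The normexp correction, run with an offset of 50, kept the same filter and the same 11974 genes. These pair counts need all 4 arrays of letters A and B, so they have no value without one of them. Genes without overlap numbered 883 above and 750 below in the deposited table (in place of 570 and 1113), and 877 to 3007 above and 1684 to 4057 below without single arrays, where fewer arrays must separate. The 212 named genes changed the sign of their difference in 171 of 3373 comparisons with an alternative, and the medians of the 48 lists in 103 of 768, of which 18 arose with slide row as a block, 17 without control A and 14 within slide row 1. The fit on the control and TAT arrays alone gives the same differences as the main fit, so its comparisons could not change a sign. Collagens, matrix glycoproteins, collagen processing, Wnt, neurotrophic, complement, apoptosis and respiration lists kept the sign of their median in all 16 alternatives. So did the fibroblast, insulin-like growth factor, angiogenic, cytoskeleton and lipid metabolism lists.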
